A study of Rattus norvegicus with 30 samples.

Results

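Methapyrilene, an antihistamine that causes liver tumours in rats, was given to cultured rat hepatocytes, and the genes of mitochondrial protein import and protein quality control were followed. They were the genes whose symbol starts with Timm or Tomm and a fixed set of partner chaperones, proteases and peptidases: Hspd1, Hspe1, Hspa9, Trap1, Grpel1, Dnaja3, Dnajc11, Clpx, Clpp, Lonp1, Yme1l1, Afg3l2, Phb2, Pmpca, Pmpcb, Pam16 and Dnajc19. The rule used names alone and no measured value. It gave 41 of the 14217 genes that the array's probe sets name singly, and 40 of them entered the tests among 10216 genes. Timm8a2 did not pass the filter on dim signals, with 0 of 30 arrays above their own median. Phb1 and Timm23 are not among the members, because their probe sets carry several gene symbols.

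The cells were frozen primary hepatocytes of male Sprague Dawley rats, bought from a supplier, plated on collagen with a Matrigel overlay and dosed on day 3 of culture. The 6 groups were DMSO vehicle, 3 uM methapyrilene and 100 uM methapyrilene, each harvested after 24 h or 48 h, with 5 arrays in each group. The vehicle is labelled 1% DMSO; the protocol uses this figure for the concentrated dosing stocks, and the final share in the wells is not clear from it. The labels describe 5 separate culture wells per group and name no animals, so p-values measure the spread between wells. Each value is the deposited signal of a probe set on a linear scale, a change is a log2 fold change ± SE from limma, and a gene is called at a Benjamini-Hochberg adjusted p under 0.05 over all 10216 genes.

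Most mitochondrial proteins are made in the cytosol and threaded inward as unfolded chains. The TOM complex of the outer membrane receives them, the presequence translocase (TIM23) and its Hsp70 motor draw those with a presequence into the matrix, and the small Tim chaperones of the intermembrane space escort carrier proteins to the TIM22 translocase. In the matrix, peptidases remove the presequence, chaperonins fold the chain and ATP-driven proteases remove what fails to fold. When folding fails, cells can raise matrix chaperones and proteases, a programme known as the mitochondrial unfolded protein response. Hepatocytes are rich in mitochondria, and the chaperonin Hspd1 is among their abundant matrix proteins.

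RefSeq promoter windows (rat build GRCr8, 250 bases before to 50 after the start) were matched by symbol for 36 of the 41 members. Clpx, Dnajc11, Lonp1, Timm29 and Tomm34 had none. The windows below belong to 4 import genes that rose at 100 uM (Tomm70, Timm8a1, Timm9 and Timm10), to Trap1, which fell, and to Hspd1, the textbook chaperone of the stress programme. All are written 5′ to 3′ along the gene's strand. Capitals mark matches, on either strand, to an ETS core (CCGGAAG) in Tomm70, to an E-box (CACGTG) in Timm8a1 and Timm9, to both in Timm10, to a cyclic AMP response element (TGACGTCA) in Trap1 and to a heat shock element (3 units of TTC or GAA in turn with 2 bases between) in Hspd1.
Tomm70, chr11:56886227-56886526, minus strand: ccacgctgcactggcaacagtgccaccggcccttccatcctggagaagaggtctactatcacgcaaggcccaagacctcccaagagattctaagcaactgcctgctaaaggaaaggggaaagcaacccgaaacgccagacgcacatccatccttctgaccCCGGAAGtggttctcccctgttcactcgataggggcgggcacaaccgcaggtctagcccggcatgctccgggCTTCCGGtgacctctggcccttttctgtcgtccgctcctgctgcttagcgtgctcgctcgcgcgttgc
Timm8a1, chrX:102015395-102015694, minus strand: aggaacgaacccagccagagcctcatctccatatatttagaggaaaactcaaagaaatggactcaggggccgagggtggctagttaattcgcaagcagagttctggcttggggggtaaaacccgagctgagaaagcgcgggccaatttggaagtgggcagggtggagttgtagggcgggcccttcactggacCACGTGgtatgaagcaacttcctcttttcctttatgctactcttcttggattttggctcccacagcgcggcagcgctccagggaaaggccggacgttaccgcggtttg
Timm9, chr6:95358846-95359145, minus strand: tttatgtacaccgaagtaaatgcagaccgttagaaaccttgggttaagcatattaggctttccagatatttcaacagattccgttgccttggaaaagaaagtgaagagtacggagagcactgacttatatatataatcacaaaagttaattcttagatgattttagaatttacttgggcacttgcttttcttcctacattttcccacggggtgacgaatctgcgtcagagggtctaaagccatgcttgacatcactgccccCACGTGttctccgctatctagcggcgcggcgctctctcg
Timm10, chr3:90314889-90315188, plus strand: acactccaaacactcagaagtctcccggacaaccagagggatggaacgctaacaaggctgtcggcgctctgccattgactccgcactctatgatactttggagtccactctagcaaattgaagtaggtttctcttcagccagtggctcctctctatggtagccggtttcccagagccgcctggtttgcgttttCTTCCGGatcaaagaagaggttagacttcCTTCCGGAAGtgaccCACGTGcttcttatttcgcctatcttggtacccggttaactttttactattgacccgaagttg
Trap1, chr10:11971009-11971308, plus strand: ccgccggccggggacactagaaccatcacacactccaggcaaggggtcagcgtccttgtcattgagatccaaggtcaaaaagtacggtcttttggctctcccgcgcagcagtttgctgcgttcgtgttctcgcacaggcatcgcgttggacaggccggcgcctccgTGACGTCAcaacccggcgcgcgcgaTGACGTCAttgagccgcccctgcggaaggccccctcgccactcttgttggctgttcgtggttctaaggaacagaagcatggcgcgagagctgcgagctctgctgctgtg
Hspd1, chr9:64083988-64084287, minus strand: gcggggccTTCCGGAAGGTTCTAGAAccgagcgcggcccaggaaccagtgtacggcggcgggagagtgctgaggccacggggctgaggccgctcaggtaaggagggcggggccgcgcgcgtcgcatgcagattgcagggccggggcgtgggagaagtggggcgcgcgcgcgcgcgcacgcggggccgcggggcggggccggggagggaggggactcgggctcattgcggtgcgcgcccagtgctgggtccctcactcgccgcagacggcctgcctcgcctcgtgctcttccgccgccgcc

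The Hspd1 window shares 211 of its 300 bases with that of Hspe1 (chr9:64084077-64084376, plus strand), because the gene pair starts head to head. The heat shock element lies in the shared stretch and overlaps an ETS core there. It was found in these 2 of 36 member windows, and in 0.482% of the windows of tested genes and 0.798% of all 33469 windows. The ETS core was in 16 of 36 member windows (44.4%, against 17.7% of windows of tested genes and 8.75% of all windows). The core GCGCANGC of the factor NRF1, a regulator of nuclear genes for mitochondria, was in 11 (30.6%, against 18.9% and 8.98%).

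The E-box was in 5 member windows (13.9%, against 9.46% and 6.42%), those of Clpp, Hspa9, Timm8a1, Timm9 and Timm10. The cyclic AMP response element was in 1 window, that of Trap1 (2.78%, against 3.10% and 1.83%). The amino acid response core TGATGNAA was in 3 (Hspa9, Timm22 and Tomm40l; 8.33%, against 2.03% and 3.98%), and the YY1 core AAGATGGC in 2 (Timm50 and Tomm40l; 5.56%, against 5.43% and 3.17%). These matches are descriptions of letters in the windows and were not tested against the expression values.

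At 100 uM the import genes moved by small amounts, and more of them rose than fell. At 24 h, 15 of the 40 members were called higher (37.5%) and 3 lower (7.5%). Over all genes tested, 19.9% were called higher and 15.8% lower. At 48 h, 11 members were higher (27.5%) and 3 lower (7.5%), against 18.9% and 14.5% of all genes. The median log2 fold change of the members was 0.138 at 24 h and 0.117 at 48 h, and that of all genes was 0.043 and 0.049. At 24 h, 13 members had all 5 treated arrays above all 5 DMSO arrays and 2 had all 5 below, where 14.5% and 11.9% of all genes did so. At 48 h these counts were 12 and 4, against 15.8% and 12.1%.

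The rises were below 1.5-fold in every called member. The largest called rise was that of Tomm70 at 24 h (35.7%) and the largest fall that of Clpx at 24 h, which dropped by 33.1%. Each time point has its own DMSO arrays. Called higher at both times were 9 members, which are 9 of 15 at 24 h and 9 of 11 at 48 h: Tomm70, Tomm6, Timm50, Pam16, Timm8a1, Timm9, Timm10, Timm13 and Yme1l1. Called lower at both times were Clpx and Trap1, and 0 members were called in opposite directions. With each array centred on its median instead, 8 members were higher and 3 lower at 24 h, and 5 higher and 2 lower at 48 h. Over all genes that centring gave 1447 higher and 1598 lower at 24 h, against 2030 and 1618 as deposited, and 1246 and 1544 at 48 h, against 1933 and 1482. The members' median stayed above 0, at 0.105 and 0.068. The calls this centring ended were those of Afg3l2, Hspa9, Timm21, Tomm20 and Yme1l1 at 24 h, of Dnajc11, Hspd1, Timm8b, Timm9 and Timm10 at 48 h, and of Timm13 and Tomm6 at both times.

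**Figure D1:**
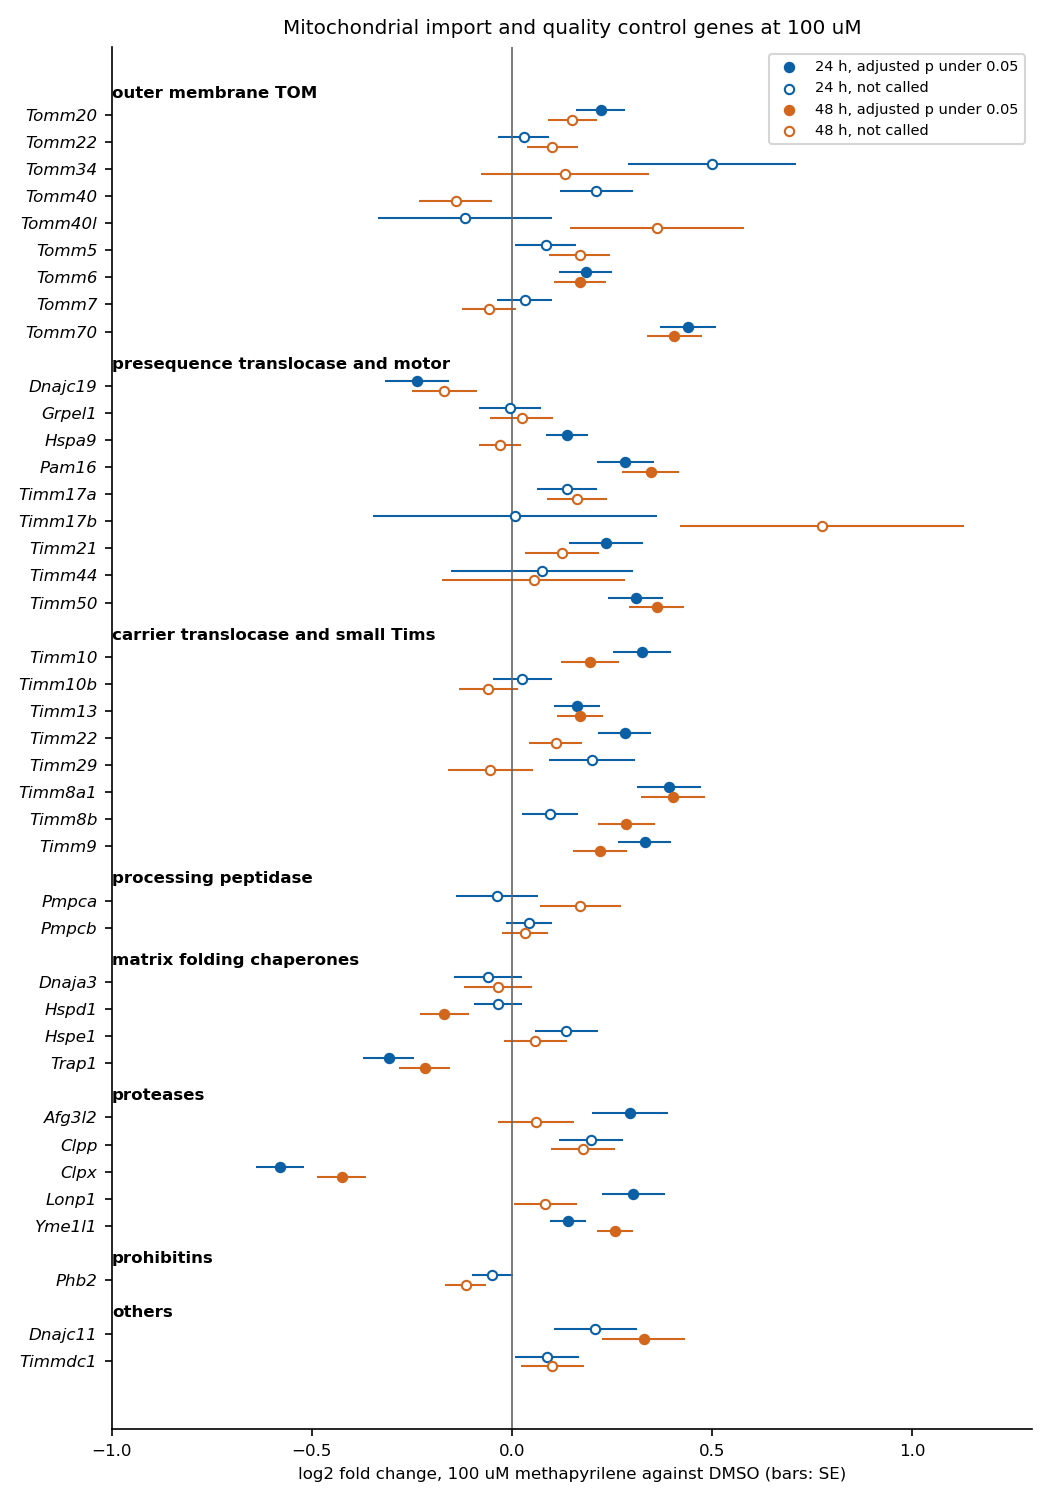
Log2 fold change of each of the 40 tested members at 100 uM methapyrilene against DMSO, at 24 h (blue) and 48 h (orange), grouped by role; bars are SE, filled points have an adjusted p under 0.05 and n = 5 arrays per group. Clpx lies farthest to the left at both times, and the wide bars belong to the dim members Tomm34, Tomm40l, Timm17b and Timm44.

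Precision differed between the members. The SE of the log2 fold change ranged from 0.0457 (Yme1l1) to 0.355 (Timm17b), with a median of 0.0742. It was above 0.15 in 4 members, Tomm34, Tomm40l, Timm44 and Timm17b, and 0 of these were called. The median coefficient of variation within a group was 7.04%.

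Among the 9 members of the TOM complex and its helpers, 3 rose at 24 h (Tomm70, Tomm20 and Tomm6) and 2 at 48 h (Tomm70 and Tomm6), and 0 fell. These are 33.3% and 22.2%, against 19.9% and 18.9% of all genes called higher, so the share at 48 h was near the background. Tomm70 is the receptor that takes carrier proteins from cytosolic chaperones. Its signal in DMSO at 24 h was 13670, 14978, 12260, 15126 and 13788, and at 100 uM it was 17525, 20116, 18792, 19585 and 18574. At 48 h the DMSO arrays read 12215, 11519, 12165, 13459 and 11507 and the treated arrays 16896, 16497, 15086, 15934 and 16176. All 5 treated arrays lay above all 5 DMSO arrays at each time. The log2 fold change was 0.44 ± 0.069 at 24 h (adjusted p = 4.18e-06) and 0.41 ± 0.069 at 48 h (adjusted p = 1.63e-05). At 3 uM Tomm70 ranged from 13318 to 17173 at 24 h and from 11381 to 14599 at 48 h, overlapping DMSO at both times.

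Tomm20, the presequence receptor, rose from 22440 ± 916 to 26180 ± 1568 at 24 h (mean ± SD, n = 5; log2 fold change 0.22 ± 0.062, adjusted p = 0.00477), and at 48 h it was at 0.15 ± 0.062 (adjusted p = 0.0586). Tomm6, a small subunit that stabilises the complex, rose by 13.6% at 24 h and 12.5% at 48 h (adjusted p = 0.0278 and 0.0459), with overlapping arrays at both times. Its call at 48 h was lost in 19 of 41 alternative fits, the array run as a block among them. Tomm40, the pore itself, was not called: 0.21 ± 0.091 at 24 h and -0.14 ± 0.091 at 48 h. The receptor Tomm22 was at 0.03 ± 0.063 and 0.10 ± 0.063, and the small subunits Tomm5 and Tomm7 were not called either. Tomm34, a cytosolic helper, had the highest log2 fold change of the module at 24 h (0.50 ± 0.21) from a dim signal, and did not pass (adjusted p = 0.0609). The Tomm40 relative Tomm40l did not pass at either time (adjusted p = 0.733 and 0.216).

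Among the 9 members of the presequence translocase and its motor, 4 rose (Timm50, Pam16, Timm21 and Hspa9) and 1 fell (Dnajc19) at 24 h, while 2 rose (Timm50 and Pam16) and 0 fell at 48 h. The shares higher were 44.4% and 22.2%, against 19.9% and 18.9% of all genes, so the share at 48 h was near the background. The share lower at 24 h was 11.1%, against 15.8% of all genes. Timm50 is the receptor that hands presequences from TOM to the channel. Its DMSO arrays at 24 h read 4132, 4986, 4539, 4460 and 4197, and the 100 uM arrays 5325, 5647, 5436, 5774 and 5418. At 48 h they read 4683, 4541, 4286, 4403 and 5154 in DMSO and 5928, 5913, 5741, 5577 and 6470 at 100 uM. The groups did not overlap at either time, and the log2 fold changes were 0.31 ± 0.069 (adjusted p = 0.000531) and 0.36 ± 0.069 (adjusted p = 7.97e-05).

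Pam16 is a subunit of the motor that restrains its J protein. Its signal was 9943, 10013, 10778, 11326 and 11635 in DMSO and 13354, 12277, 13889, 12853 and 12872 at 100 uM after 24 h. After 48 h it was 9756, 10190, 10634, 9943 and 9493 and 12848, 12547, 13123, 12772 and 12311. Every treated array was above every DMSO array at both times (0.28 ± 0.071, adjusted p = 0.00183; 0.35 ± 0.071, adjusted p = 0.000207). Dnajc19, the J protein counterpart of Pam16 in the motor, went the other way: it fell from 18660 ± 1032 to 15850 ± 1192 at 24 h (-0.24 ± 0.081, adjusted p = 0.0207) and was at -0.17 ± 0.081 at 48 h (adjusted p = 0.110). Its call at 24 h was lost without 100 uM replicate 2 or 4.

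Hspa9, the mitochondrial Hsp70 that pulls chains inward, was 10.1% higher at 24 h (0.14 ± 0.053, adjusted p = 0.0395) and at -0.03 ± 0.053 at 48 h. That call was lost in 9 of 41 alternative fits, 7 of which left out 1 array. Timm21, which docks the translocase to TOM, rose by 0.23 ± 0.093 at 24 h (adjusted p = 0.0464), a call lost in 17 of 41 alternative fits. The nucleotide exchange factor Grpel1 stayed at 0.00 ± 0.078 and 0.02 ± 0.078, and the channel subunit Timm17a at 0.14 ± 0.075 and 0.16 ± 0.075. Timm17b and the motor anchor Timm44 were dim, with adjusted p from 0.0934 to 0.990.

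Among the 8 tested members of the carrier translocase and the small Tims, 5 rose (62.5%) and 0 fell at each time. The share was not tested against the other roles. Of all genes, 19.9% were called higher at 24 h and 18.9% at 48 h. Median centring ended the calls of Timm13 at both times and of Timm8b, Timm9 and Timm10 at 48 h. On its other probe set Timm8a1 was called lower at 48 h. Higher at both times were Timm8a1, Timm9, Timm10 and Timm13, with Timm22 at 24 h and Timm8b at 48 h. Timm8a1 pairs with Timm13 in a chaperone ring, and its human counterpart is mutated in a deafness and dystonia syndrome. Its DMSO arrays at 24 h read 4020, 4474, 4436, 4735 and 4540, and the 100 uM arrays 5721, 5931, 6206, 5548 and 5737. At 48 h they read 3650, 3912, 3796, 3822 and 3408 and 4980, 4888, 4794, 5083 and 4812. The groups were apart at both times (0.39 ± 0.080, adjusted p = 0.00019; 0.40 ± 0.080, adjusted p = 0.000149).

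Timm9 and Timm10 form the other ring. Timm9 was at 4913, 4605, 4558, 4766 and 4740 in DMSO and 6115, 6159, 6023, 5392 and 6020 at 100 uM after 24 h, and at 4370, 4386, 4250, 4557 and 4485 and 5709, 5030, 4861, 5069 and 5039 after 48 h. Timm10 was at 10544, 11636, 13194, 11505 and 12519 and 16251, 15047, 15258, 14198 and 13614 after 24 h, and at 10731, 10276, 10685, 11161 and 10253 and 12105, 13411, 11389, 11883 and 12084 after 48 h. In both genes every treated array was above every DMSO array of its time. The log2 fold changes at 24 h were 0.33 ± 0.067 (adjusted p = 0.000153) for Timm9 and 0.33 ± 0.073 (adjusted p = 0.000557) for Timm10. At 48 h they were 0.22 ± 0.067 (adjusted p = 0.00973) and 0.20 ± 0.073 (adjusted p = 0.0363). The Timm10 call at 48 h was lost in 9 of 41 alternative fits.

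Timm13, the ring partner of Timm8a1, rose by 0.16 ± 0.057 at 24 h and 0.17 ± 0.057 at 48 h (adjusted p = 0.0238 and 0.0199). Timm8b, another small Tim, was at 17279, 16483, 16202, 16501 and 16500 in DMSO and 21093, 21786, 20448, 19084 and 18898 at 100 uM after 48 h, with all treated arrays higher (0.29 ± 0.071, adjusted p = 0.00169). At 24 h its groups overlapped (0.10 ± 0.071, adjusted p = 0.323). Timm22, the channel for carriers, rose from 3211 ± 221 to 3906 ± 295 at 24 h (0.28 ± 0.066, adjusted p = 0.000885) and was at 0.11 ± 0.066 at 48 h. Its partner Timm29 (0.20 ± 0.11 and -0.05 ± 0.11) and the small Tim Timm10b (0.03 ± 0.073 and -0.06 ± 0.073) were not called.

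**Figure D2:**
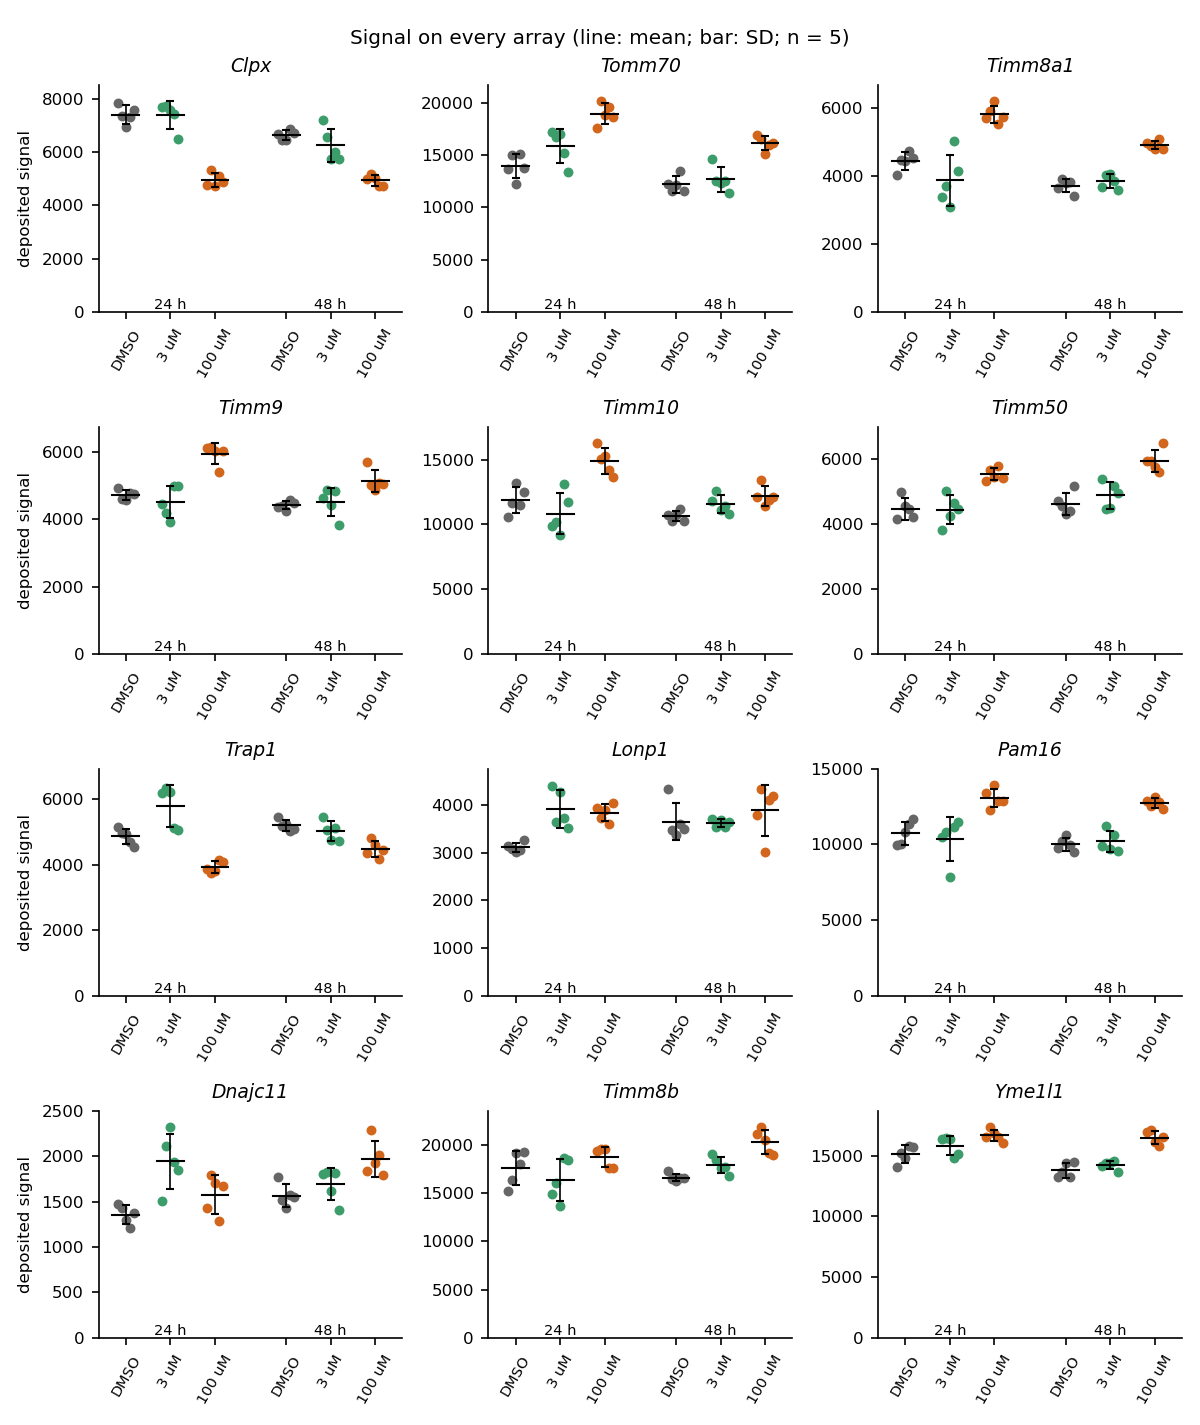
Deposited signal (linear scale, axis from 0) on every array for the 12 called members given array by array at 100 uM or 3 uM by the size and separation of their change, in DMSO (grey), 3 uM (green) and 100 uM (orange) at 24 h and 48 h; lines are group means and bars SD, n = 5. In Clpx the 100 uM points lie below DMSO at both times, from 4714 to 5347 at 24 h against 6933 to 7865, and in Tomm70, Timm8a1, Timm9, Timm10, Timm50 and Pam16 they lie above.

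On its brightest probe set, neither subunit of the processing peptidase was called (Pmpca -0.04 ± 0.10 and 0.17 ± 0.10; Pmpcb 0.04 ± 0.058 and 0.03 ± 0.058). Among the 4 matrix folding chaperones 0 rose, 1 fell at 24 h (Trap1, 25%) and 2 fell at 48 h (Trap1 and Hspd1, 50%). Of all genes, 15.8% and 14.5% were called lower, and shares of only 4 genes are coarse. Trap1 is the mitochondrial Hsp90. Its signal at 24 h was 5154, 4964, 4918, 4700 and 4535 in DMSO and 3863, 3730, 3806, 4138 and 4068 at 100 uM. At 48 h it was 5440, 5175, 5239, 5035 and 5084 and 4355, 4815, 4587, 4165 and 4429. All treated arrays were below all DMSO arrays at both times (-0.31 ± 0.063, adjusted p = 0.000202; -0.22 ± 0.063, adjusted p = 0.00688).

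Hspd1, the HSP60 chaperonin, was at 41252, 38437, 41498, 36124 and 40375 in DMSO and 40428, 40359, 37946, 37608 and 36507 at 100 uM after 24 h, with overlapping arrays (-0.03 ± 0.060, adjusted p = 0.709). At 48 h the DMSO arrays read 42267, 38719, 37376, 39471 and 42300 and the treated arrays 36372, 37125, 34781, 34580 and 34978. The treated arrays were then all lower, and the fall was 11.1% (-0.17 ± 0.060, adjusted p = 0.0291). The call was lost in 6 of 41 alternative fits, among them median centring, with adjusted p up to 0.0805. Its lid Hspe1, which shares the promoter stretch shown above, was not called: 37000 ± 3239 against 40620 ± 2859 at 24 h (0.14 ± 0.079, adjusted p = 0.191) and 36660 ± 1880 against 38150 ± 1285 at 48 h (0.06 ± 0.079, adjusted p = 0.624). The J protein Dnaja3 was at -0.06 ± 0.085 and -0.04 ± 0.085.

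Over the 30 arrays, the 5 genes outside the module whose log2 signal followed Hspd1 most closely were Mgst2 (Pearson's r = 0.903), Ndufb3 (0.890), Hsd11b1 (0.883), Rbp4 (0.863) and Atp5f1a (0.850). The value for Hspe1 was 0.574, and those for Hspa9, Trap1 and Clpx were 0.058, 0.139 and 0.391. These correlations describe arrays that share groups and scaling, and the genes were picked as the highest of all.

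Among the 5 proteases, 3 rose (Lonp1, Afg3l2 and Yme1l1) and 1 fell (Clpx) at 24 h, and 1 rose (Yme1l1) and 1 fell (Clpx) at 48 h. The shares higher were 60% and 20%, against 19.9% and 18.9% of all genes. The share lower was 20% at each time, against 15.8% and 14.5% of all genes. Clpx is the unfoldase that feeds the ClpP peptidase and also acts on the first enzyme of haem synthesis. Its DMSO arrays at 24 h read 7865, 7351, 6933, 7337 and 7583, and the 100 uM arrays 4763, 5347, 4714, 5103 and 4874. At 48 h they read 6680, 6449, 6454, 6890 and 6712 and 5010, 5190, 5031, 4732 and 4748. The groups were far apart at both times, with log2 fold changes of -0.58 ± 0.060 (adjusted p = 1.77e-09) and -0.43 ± 0.060 (adjusted p = 7.82e-07). The peptidase Clpp did not fall with it: it was at 0.20 ± 0.080 at 24 h (adjusted p = 0.0535) and 0.18 ± 0.080 at 48 h (adjusted p = 0.0899).

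Lonp1, the main protease of the matrix, was at 3149, 3086, 3023, 3054 and 3264 in DMSO and 3946, 3734, 3897, 3611 and 4038 at 100 uM after 24 h, with no overlap (0.30 ± 0.079, adjusted p = 0.0026). At 48 h the DMSO arrays read 4344, 3474, 3371, 3594 and 3498 and the treated arrays 3795, 4341, 3015, 4102 and 4187, which overlapped (0.08 ± 0.079, adjusted p = 0.464). Afg3l2, a subunit of the inner membrane protease that faces the matrix, rose by 0.30 ± 0.095 at 24 h (adjusted p = 0.0135) and was at 0.06 ± 0.095 at 48 h.

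Yme1l1, the inner membrane protease that faces the intermembrane space, was at 13237, 13641, 14370, 13274 and 14490 in DMSO and 16929, 17144, 16108, 15784 and 16506 at 100 uM after 48 h, with all treated arrays higher (0.26 ± 0.046, adjusted p = 3.18e-05). At 24 h it was 10.2% higher (adjusted p = 0.0156). This holds for its brightest probe set, as the next paragraph shows.

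Of the 41 members, 15 had more than 1 probe set, and in several the probe sets did not move alike. For Yme1l1, of mean signal 15370 on the brightest probe set, another probe set of mean signal 3028 fell by 0.59 ± 0.077 at 24 h and by 0.50 ± 0.077 at 48 h (adjusted p = 2.22e-07 and 4.92e-06 in the fit over all probe sets). Its second brightest, of mean signal 4464, was flat (-0.03 ± 0.069 and 0.02 ± 0.069). The dimmest, of mean signal 2011, was at -0.48 ± 0.19 and 0.19 ± 0.19 and was not called at either time. With the mean over its probe sets, Yme1l1 was at -0.24 ± 0.079 (adjusted p = 0.0194) and -0.01 ± 0.079 (adjusted p = 0.959). The direction for Yme1l1 therefore rests on which probe set is read.

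For Timm8a1, the other probe set rose by 0.16 ± 0.055 at 24 h (adjusted p = 0.0222) and fell by 0.14 ± 0.055 at 48 h (adjusted p = 0.0459), so its direction at 48 h differs between probe sets of similar mean signal (4437 and 4074). With their mean it was not called at 48 h (0.13 ± 0.052, adjusted p = 0.0601). For Tomm70, the other probe set was at 0.07 ± 0.075 and 0.12 ± 0.075 and was not called. With the mean over probe sets Tomm70 was called higher at both times (0.26 ± 0.064 at each). For Tomm20, the other probe set was higher too (0.39 ± 0.11 and 0.34 ± 0.11, adjusted p = 0.0044 and 0.0152). For Timm22 it was at -0.07 ± 0.14 at 24 h, and with the mean over probe sets the call was lost (0.10 ± 0.077, adjusted p = 0.336). For Pmpcb, a dim probe set was called higher at 48 h (0.49 ± 0.19, adjusted p = 0.0481), unlike the brightest. For Lonp1, the other probe set was near the floor of the array (mean signal 32.9, 0 arrays above their own median), and only the mean over probe sets, which includes it, turned the sign (-0.72 ± 0.31 at 24 h). Which part of each transcript the probe sets read was not analysed here.

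**Figure D3:**
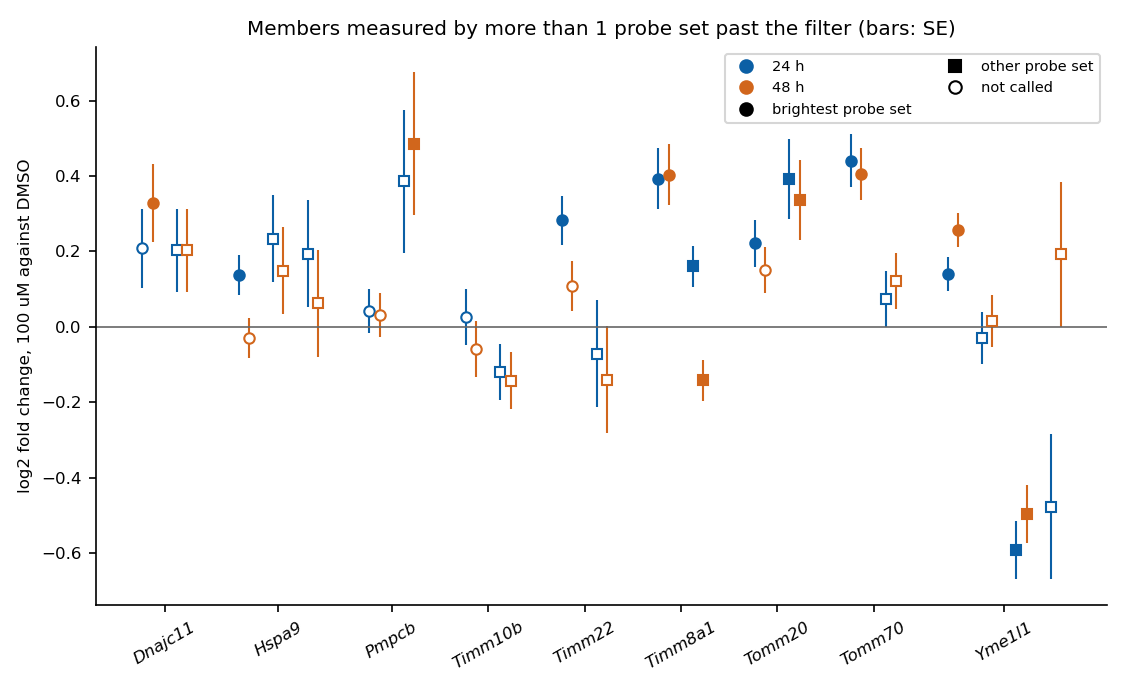
Log2 fold change at 100 uM against DMSO for members with more than 1 probe set past the filter, at 24 h (blue) and 48 h (orange); circles are the brightest probe set, squares the others, bars SE, and filled symbols have an adjusted p under 0.05. The probe sets of Yme1l1 lie on both sides of 0, while both of Tomm20 lie above it.

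Phb2, which with Phb1 forms the ring that surrounds inner membrane proteases, was at -0.05 ± 0.052 and -0.12 ± 0.052 (adjusted p = 0.514 and 0.0865). Dnajc11, a J protein of the complexes that shape the inner membrane, was at 1774, 1519, 1434, 1570 and 1549 in DMSO and 1835, 2293, 1933, 2014 and 1795 at 100 uM after 48 h. Its treated arrays were all higher (0.33 ± 0.10, adjusted p = 0.0134), and the call was lost without 100 uM replicate 2. The other Dnajc11 probe set past the filter was at 0.20 ± 0.11 at 48 h and was not called. With the mean over probe sets Dnajc11 was at 0.13 ± 0.12 (adjusted p = 0.475). That mean includes a further probe set near the floor of the array (mean signal 24.7, 0 arrays above their own median). Timmdc1, an assembly factor of respiratory complex I, was at 0.09 ± 0.079 and 0.10 ± 0.079.

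The change of the 100 uM effect between 24 h and 48 h was tested directly with limma. It was called in 0 of 40 members, against 1.66% of all genes. At an unadjusted p under 0.05 it passed in 2 members (5.0%, against 11.3% of all genes), and the lowest adjusted p was 0.231 (Tomm40). The other probe set of Timm8a1 did pass in the fit over all probe sets (-0.30 ± 0.077, adjusted p = 0.042). The members called at only 1 of the times (Lonp1 or Timm22 at 24 h, Timm8b at 48 h) were therefore not shown to respond differently at the other. In DMSO, 0 of 40 members differed between 48 h and 24 h in limma, against 4.48% of all genes. At an unadjusted p under 0.05, 8 of the 40 members did, against 15.7% of all genes. The lowest adjusted p of the members in limma was 0.0616, for Timm8a1 (-0.26 ± 0.080).

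At 3 uM and 24 h, 4 of 40 members were called higher (Dnajc11, Lonp1, Trap1 and Hspa9) and 0 lower, against 3.00% and 1.22% of all genes. These comparisons share the 24 h DMSO arrays with those of 100 uM. The array's beta-actin controls give a 3'/5' signal ratio, which goes up when RNA or its labelled copy is short. It was 3.93, 5.10 and 5.30 in replicates 1, 2 and 3 of this group and from 2.34 to 3.43 in the other 27 arrays. Trap1 at 3 uM read 6173, 6322, 6220, 5109 and 5044 in replicates 1 to 5, so the same 3 arrays held its high values and replicates 4 and 5 lay within the DMSO range. Hspa9 read 18194, 18206, 18770, 15468 and 16191, with the same 3 arrays highest, against 14870 to 15690 in DMSO.

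Dnajc11 read 1507, 2111, 2321, 1936 and 1851 at 3 uM and 1475, 1428, 1298, 1216 and 1380 in DMSO. Lonp1 read 4396, 3645, 4276, 3735 and 3530 at 3 uM. In both genes all 5 treated arrays, replicates 4 and 5 included, lay above all DMSO arrays. The log2 fold changes were 0.51 ± 0.10 for Dnajc11 (adjusted p = 0.00805), 0.33 ± 0.079 for Lonp1 (adjusted p = 0.0188), 0.24 ± 0.063 for Trap1 (adjusted p = 0.026) and 0.19 ± 0.053 for Hspa9 (adjusted p = 0.0356).

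With the actin ratio as a covariate, 0 of the 40 members were called, and the values were 0.35 ± 0.12 (adjusted p = 0.543), 0.24 ± 0.094 (0.613), 0.11 ± 0.065 (0.829) and 0.07 ± 0.053 (0.881) in the same order. With replicates 4 and 5 alone, 0 were called, and the values were 0.48 ± 0.12, 0.22 ± 0.098, 0.07 ± 0.067 and 0.06 ± 0.057. Single arrays also decided the count: it was 0 without 3 uM replicate 3, 1 without 3 uM replicate 1 or DMSO replicate 2, 2 without 3 uM replicate 2 or DMSO replicate 5, 9 without 3 uM replicate 4 and 10 without 3 uM replicate 5. The calls over all 10216 genes moved as well. They were 34 higher and 10 lower without 3 uM replicate 3, 884 and 565 without replicate 4, and 944 and 707 without replicate 5. With the actin ratio as a covariate they were 0 and 1, and with replicates 4 and 5 alone 0 and 4. For Hspa9, another probe set was lower at 3 uM (-0.48 ± 0.14, adjusted p = 0.0475). At 3 uM and 48 h, limma called 0 of 40 members, against 0.0392% of all genes in either direction. There, 0 members passed an unadjusted p under 0.05, against 5.09% of all genes.

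**Figure D4:**
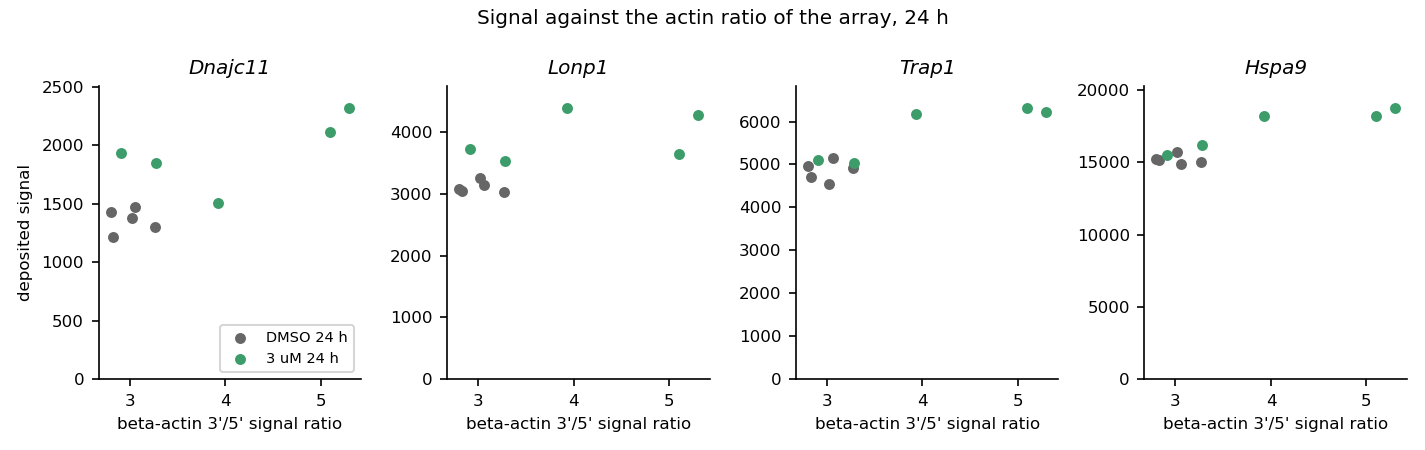
Deposited signal (axis from 0) of the 4 members called at 3 uM and 24 h against the 3' to 5' beta-actin ratio of the same array, for DMSO (grey) and 3 uM (green) at 24 h, 5 arrays each. In Trap1 and Hspa9 the 3 highest points are the arrays with ratios of 3.93 to 5.30. The other 2 treated arrays lie above DMSO in Dnajc11 and Lonp1, and replicate 5 does so in Hspa9 (16191, against at most 15690 in DMSO).

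Import and quality control genes outside the module were listed for comparison, 35 in all, of which 32 were tested. At 100 uM, 5 were higher and 3 lower at 24 h, and 9 higher and 2 lower at 48 h, with medians of 0.024 and 0.034. The shares called higher were 15.6% and 28.1%, against 19.9% and 18.9% of all genes, and the shares called lower 9.38% and 6.25%, against 15.8% and 14.5%. The 3 lower at 24 h include Lonp2 (-0.25 ± 0.060, adjusted p = 0.00121), a peroxisomal relative of Lonp1 that the list also holds. Dnlz, a partner that keeps Hspa9 soluble, rose from 5436 ± 649 to 9167 ± 637 at 24 h (0.76 ± 0.078, adjusted p = 1.61e-09) and by 0.54 ± 0.078 at 48 h (adjusted p = 1.12e-06). Grpel2, the relative of Grpel1, rose from 1221 ± 145 to 1867 ± 60.2 at 24 h (0.62 ± 0.095, adjusted p = 2.9e-06) and by 0.83 ± 0.095 at 48 h (adjusted p = 1.31e-08). Pitrm1, which degrades cleaved presequences, rose by 0.53 ± 0.11 and 0.42 ± 0.11, and Chchd3 and Chchd6 of the inner membrane cristae complex rose at both times as well. Mipep, a peptidase that trims imported proteins after Pmpca and Pmpcb, fell by 0.47 ± 0.11 and 0.59 ± 0.11, and Pink1, the kinase that marks damaged mitochondria, fell by 0.30 ± 0.087 and 0.33 ± 0.087.

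Of 17 regulators tied to mitochondrial stress and biogenesis, 16 were tested at 100 uM: 4 were higher and 3 lower at 24 h, and 4 higher and 4 lower at 48 h. These shares, 25% higher at each time, 18.8% lower at 24 h and 25% lower at 48 h, stand beside 19.9%, 18.9%, 15.8% and 14.5% of all genes, and the counts of 16 are small. Ddit3 (CHOP) was higher by 1.07 ± 0.072 and 1.11 ± 0.072, while Atf5, a factor of the mitochondrial stress programme, fell from 13300 ± 1006 to 10210 ± 371 at 24 h (-0.38 ± 0.076, adjusted p = 0.000156) and by 0.75 ± 0.076 at 48 h (adjusted p = 1.12e-09). Atf4 rose at 24 h (0.30 ± 0.071, adjusted p = 0.00102) and was at 0.02 ± 0.071 at 48 h. Tfam, which packages mitochondrial DNA, rose at both times (0.29 ± 0.068 and 0.27 ± 0.068). Gabpa, which binds the ETS core counted above, fell (-0.64 ± 0.12 and -0.31 ± 0.12), as did the deacetylase Sirt3 (-0.60 ± 0.15 and -0.42 ± 0.15). Gabpb1 was not called (0.11 ± 0.11 and 0.17 ± 0.11). Yy1, whose core was also counted, was called higher at both times (0.19 ± 0.047, adjusted p = 0.00143, and 0.16 ± 0.047, adjusted p = 0.00926). Nrf1, whose core was counted too, was the listed regulator not tested. The heat shock factor Hsf1 was not called (0.32 ± 0.18 and 0.39 ± 0.18).

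Other lists of nuclear genes for mitochondrial proteins were also counted at 100 uM. Of 73 mitochondrial ribosomal proteins, 20 were higher and 3 lower at 24 h (27.4% and 4.11%, median 0.088). At 48 h, 18 were higher and 1 lower (24.7% and 1.37%, median 0.109). The members stood at 37.5% higher and 7.5% lower at 24 h, and at 27.5% and 7.5% at 48 h. Of all genes, 19.9% were higher and 15.8% lower at 24 h, and 18.9% and 14.5% at 48 h. Of 75 oxidative phosphorylation genes taken by symbol prefix, 2 were higher and 9 lower at 24 h (2.67% and 12%, median -0.031). At 48 h, 2 were higher and 15 lower (2.67% and 20%, median -0.080). Not every gene with such a symbol is a subunit. The 2 called higher were Atp5if1 (0.29 and 0.36) and Cox7a2l (0.19 and 0.22) at both times, and the largest fall was that of Ndufa4l2 (-0.91 and -1.16). The difference between the lists was not tested.

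**Figure D5:**
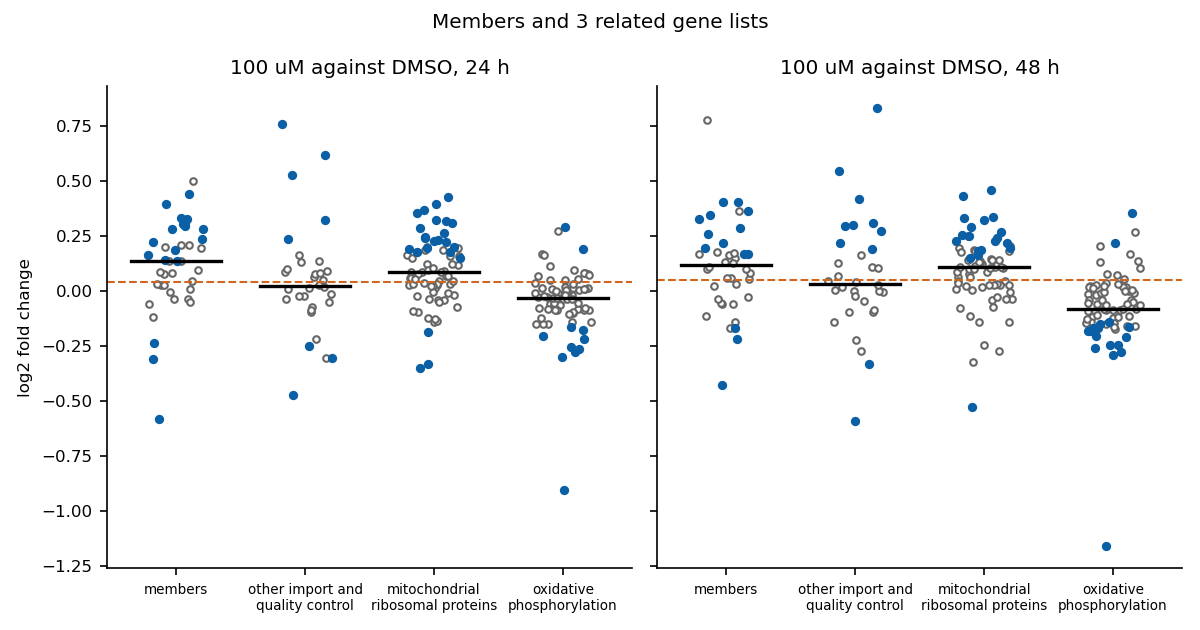
Log2 fold change at 100 uM against DMSO for single genes of the module (40), the other import and quality control genes (32), mitochondrial ribosomal proteins (73) and oxidative phosphorylation genes taken by symbol prefix (75), at 24 h and 48 h. Filled blue points have an adjusted p under 0.05, black bars are list medians and the dashed line is the median of all genes tested; the bar of the oxidative phosphorylation list lies below that line at both times, at -0.031 and -0.080.

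Markers of the cell types a hepatocyte culture can hold were read on the same arrays. Of 10 hepatocyte markers 9 were on the array and 0 were at 0, and their summed signal ranged from 419400 to 518900 in DMSO and 391100 to 489700 at 100 uM at 24 h, and from 398800 to 470100 and 363300 to 407900 at 48 h. Of these 9, 5 were called lower at 100 uM at 24 h (55.6%, median -0.349) and 3 at 48 h (33.3%, median -0.152), and 0 higher. Of all genes, 15.8% were called lower at 24 h and 14.5% at 48 h. The summed signal of 9 Kupffer cell and leukocyte markers (of 10 listed, 0 at 0) was lower at 100 uM. It was 15400 to 16860 against 19060 to 22840 at 24 h, and 11650 to 15270 against 18500 to 21420 at 48 h. Of these markers, 6 were tested, and 2 were called lower at each time (33.3%). The log2 fold change was above 0 in 3 of the 6 at 24 h (median -0.076) and in 1 at 48 h (median -0.136). The summed signal of 5 cholangiocyte markers (of 6) was 11090 to 11970 against 9925 to 11040 at 24 h and 11060 to 12020 against 12600 to 13590 at 48 h. Only 2 of them were tested: 1 was called higher at 24 h, and 2 were called lower at 48 h. Summed signals of 8 stellate cell and fibroblast markers and of 5 sinusoidal endothelium markers overlapped between 100 uM and DMSO at both times. The part of all these markers in the values of the import genes was not tested. In RNA from whole wells, fewer cells of a type and less RNA per cell cannot be told apart.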

How the data were processed

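Biotin-labelled copies of RNA from 30 wells were measured on rat expression arrays, per the labels. The deposited values are intensity, made by the authors with MAS5 per the submitters' processing notes; its version is not given in the sources used here. Array medians ranged from 361.7 to 471.4, and the number of arrays limits the precision. The array holds 31099 probe sets. Only the 20826 that name a single gene were used, with symbols updated to the current rat gene table; 436 name several genes, 9780 name none and 57 are controls.

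Each gene took its probe set of highest mean signal, and the gene was tested if that signal was above the array's median on 5 or more arrays (10216 genes). Values were log2 transformed without a pseudocount. limma 3.58.1 (R 4.3.3) fitted a mean per group to all 30 arrays (24 residual degrees of freedom, eBayes with a trend), with two-sided p-values adjusted by Benjamini-Hochberg within each comparison. The fit was tested on simulated data.

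Given array by array are the called members of largest change without overlap (up to 8 at each time for 100 uM, and up to 3 by adjusted p for 3 uM), with Hspd1 added. Other genes come from fixed lists, and the 5 most like Hspd1 by correlation. The members, lists and rules were chosen with earlier results of these data known. The labels give no shared replicate numbers, so replicates were numbered by accession, as names alone. Titles carry a serial array number; the 5 array runs of 6 were inferred from its order, and each holds 1 array per group. The 11 alternatives changed the scaling, the filter, the choice of probe set, the variance model and the set of arrays fitted, added a pseudocount of 16, took the array run as a block or the actin ratio as a covariate, and reduced 3 uM at 24 h to 2 arrays. Each array was also left out in turn. Figures used matplotlib 3.10.9 in Python 3.11.15.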

Additional observations from a re-analysis of the deposited data

Results flagged for a closer look

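In 12 members given array by array (Hspd1 was left out here), 72 groups were examined. Of these, 6 groups held 1 array whose gap to its neighbour took an unusually large share of the group's range, where chance gives about 1 in 20 groups. At 3 uM and 24 h, Clpx was lowest in replicate 5 (6492, against 7447 to 7749) and Pam16 in replicate 3 (7839, against 10472 to 11458). At 100 uM, Timm9 was lowest in replicate 4 at 24 h (5392, against 6020 to 6159) and highest in replicate 1 at 48 h (5709, against 4861 to 5069). In DMSO at 48 h, replicate 1 was highest for Lonp1 (4344, against 3371 to 3594) and for Timm8b (17279, against 16202 to 16501).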

How the results depend on the processing

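At 100 uM and 24 h, the count of members called higher (15) was within 1.5 times of itself in 10 of 11 alternatives; it was 8 with median centring, and 11 to 17 with each array left out. The count called lower (3) was 5 with the mean of all probe sets, which adds Phb2 and Yme1l1, and 2 to 3 with each array left out. At 48 h, the count higher (11) was 5 with median centring and 8 to 13 with each array left out. The count lower (3) was 5 with quantile normalization and 5 with only the groups compared, both adding Dnajc19 and Phb2, and 2 to 3 with each array left out. At 3 uM and 24 h, the count (4) was 2 with median centring and 2 with the mean of all probe sets. It was 0 with only the groups compared, with the actin ratio as a covariate or with 2 arrays. In that order, these fits called 0, 0 and 0 of all genes higher and 0, 1 and 4 lower. The member count was 0 to 10 with each array left out. In DMSO at 48 h against 24 h, the count (0) was 1 with only the groups compared and 1 with the actin ratio as a covariate (Timm8a1), 2 with 2 arrays at 3 uM (Timm8a1 and Yme1l1) and 0 to 2 with each array left out: 2 without DMSO 24 h replicate 1, and 1 without DMSO 24 h replicate 3, 3 uM 24 h replicate 3 or 4, or 100 uM 48 h replicate 3. The counts at 3 uM and 48 h and for the change between times stayed at 0 in all 41 fits. Of single genes, the mean of all probe sets reversed Lonp1 at 24 h (-0.72 at 100 uM and -0.86 at 3 uM), Yme1l1 at 100 uM (-0.24, called lower, at 24 h and -0.008 at 48 h) and Hspa9 at 3 uM and 24 h (-0.09). It ended the calls of Timm22 at 24 h (0.10) and of Timm8a1 and Dnajc11 at 48 h (0.13 each); apart from what the other probe sets show, the cause was not tested. The calls of Clpx, Tomm70, Timm50, Pam16 and Trap1 at both times at 100 uM, and of Timm8a1, Timm9 and Timm10 at 24 h, were lost in 0 of 41 fits. Calls lost without 1 array were also those of Tomm6 and Timm13 at both times and of Yme1l1 at 24 h (DMSO replicate 1). The labels give no replicate numbers that groups share. With the array run as a block, every count above stayed within 1.5 times of its main value, and Tomm6 lost its call at 48 h.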
